A study of Mus musculus with 31 samples.

Results

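The cytochrome P450 (Cyp) genes outside the large Cyp2 family were taken by gene name alone: every probe named Cyp with a family number other than 2, then a letter and a number, together with Cyp51. They came to 52 of the 24813 genes named on the array, in 16 families, measured by 67 of its 56605 probes. The pseudogenes Cyp4b1-ps2 and Cyp4f41-ps and the antisense transcript Cyp4x1os were among them, and the other 49 code for a protein. After a filter on dim probes 34 of the 52 genes were tested, among 19797 genes in all.

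The tissue was the distal colon of BALB/c mice, with 1 array per mouse. All mice, the controls included, had received azoxymethane (AOM), a colon carcinogen, by injection, and then dextran sodium sulphate (DSS) in the drinking water, which injures the colon lining, so that every comparison is made within this model of colorectal cancer (CRC). The CRC mice were given water by gavage and the CRC + E171 mice food-grade titanium dioxide (E171) at 5 mg/kg body weight, for 2, 7, 14 or 21 days. Each of the 8 groups held 2 females and 2 males, except CRC at 21 days, which held 2 females and 1 male. Mice without AOM and DSS were not analysed here, and in whole tissue fewer cells of a type cannot be told apart from less RNA per cell.

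P450 enzymes are membrane-bound haem proteins that insert oxygen into fats, hormones and foreign compounds, with electrons handed on by the reductase Por and other donors. The Cyp1 and Cyp3 families oxidise drugs and pollutants and are switched on by the aryl hydrocarbon receptor (Ahr) and the pregnane X receptor (Nr1i2). Cyp4 enzymes hydroxylate fatty acids and eicosanoids, and the smaller families make or break down bile acids, cholesterol, steroid hormones, retinoic acid and vitamin D.

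The probes of the genes on which the results below turn are printed first, to show which stretch of each transcript was measured. All lie on the minus strand of mm9. The Cyp3a11 probe crosses a splice junction within chr5:146672058-146673925 and is given whole. Of the others the first 30 bases are given, 5′ to 3′, from probes at chr5:138335412-138335471 (Cyp3a13), chr5:146197274-146197333 (Cyp3a16), chr5:146505792-146505851 (Cyp3a41a), chr4:115297406-115297465 (Cyp4b1), chr17:33042214-33042273 (Cyp4f14) and chr17:80106547-80106606 (Cyp1b1).
Cyp3a11: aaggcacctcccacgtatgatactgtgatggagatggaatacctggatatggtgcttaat
Cyp3a13: cctgtggaccagaaaccaattcatattgtg
Cyp3a16: gatgcagtcataactggagcgtgattttcc
Cyp3a41a: actggttctcatgggaccatctccatccac
Cyp4b1: ctgtcttgagaaacttcatttatttctcat
Cyp4f14: gactattctctgaacaacataggaagccaa
Cyp1b1: actacattaagcagatagatcaccatgtat

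Some probes resembled each other when aligned without gaps. Those of Cyp3a25 and Cyp3a57 shared 49 of 52 bases, those of Cyp3a16 and Cyp3a25 shared 24 of 32, and those of Cyp4f17 and Cyp4f40 shared 37 of 51. Whether a probe also caught its relative was not tested.

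Levels are log2 signals on a scale where 0 is the signal at the 75th percentile of the array, and they are compared between arrays for 1 gene and never between genes. Values of a group are given with the females first, and "near background" marks a spot that was not well above its background. Across arrays the 75th percentile ran from 1717 to 6536 and 67.4 to 78.9% of spots were well above background. On 3 arrays (CRC + E171 at 7 days female 2, and at 14 days female 1 and female 2) the median of 6 posterior Hox genes, which mark the distal colon, lay between -5.66 and -4.32 relative to each gene's mean, against -0.90 to 2.00 on the other 28. On another 3 (CRC at 7 days male 1 and male 2, and CRC + E171 at 14 days male 2) the median of 9 surface colonocyte genes lay between -5.96 and -2.45, against -0.07 to 1.83 on the other 28. They are called the Hox-low and the colonocyte-low arrays, and results that rest on them are given with and without them. Without the colonocyte-low arrays only females are left in CRC at 7 days. Without the Hox-low ones only males are left in CRC + E171 at 14 days. In those comparisons the sexes are unequal between the groups, and the part of sex cannot be told apart from that of E171. Without both sets CRC + E171 at 14 days keeps 1 array, male 1. Xist went against the label on 1 array, labelled male 2 of CRC at 14 days (-1.60, against -8.51 to -6.53 on the other males).

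**Figure D1:**
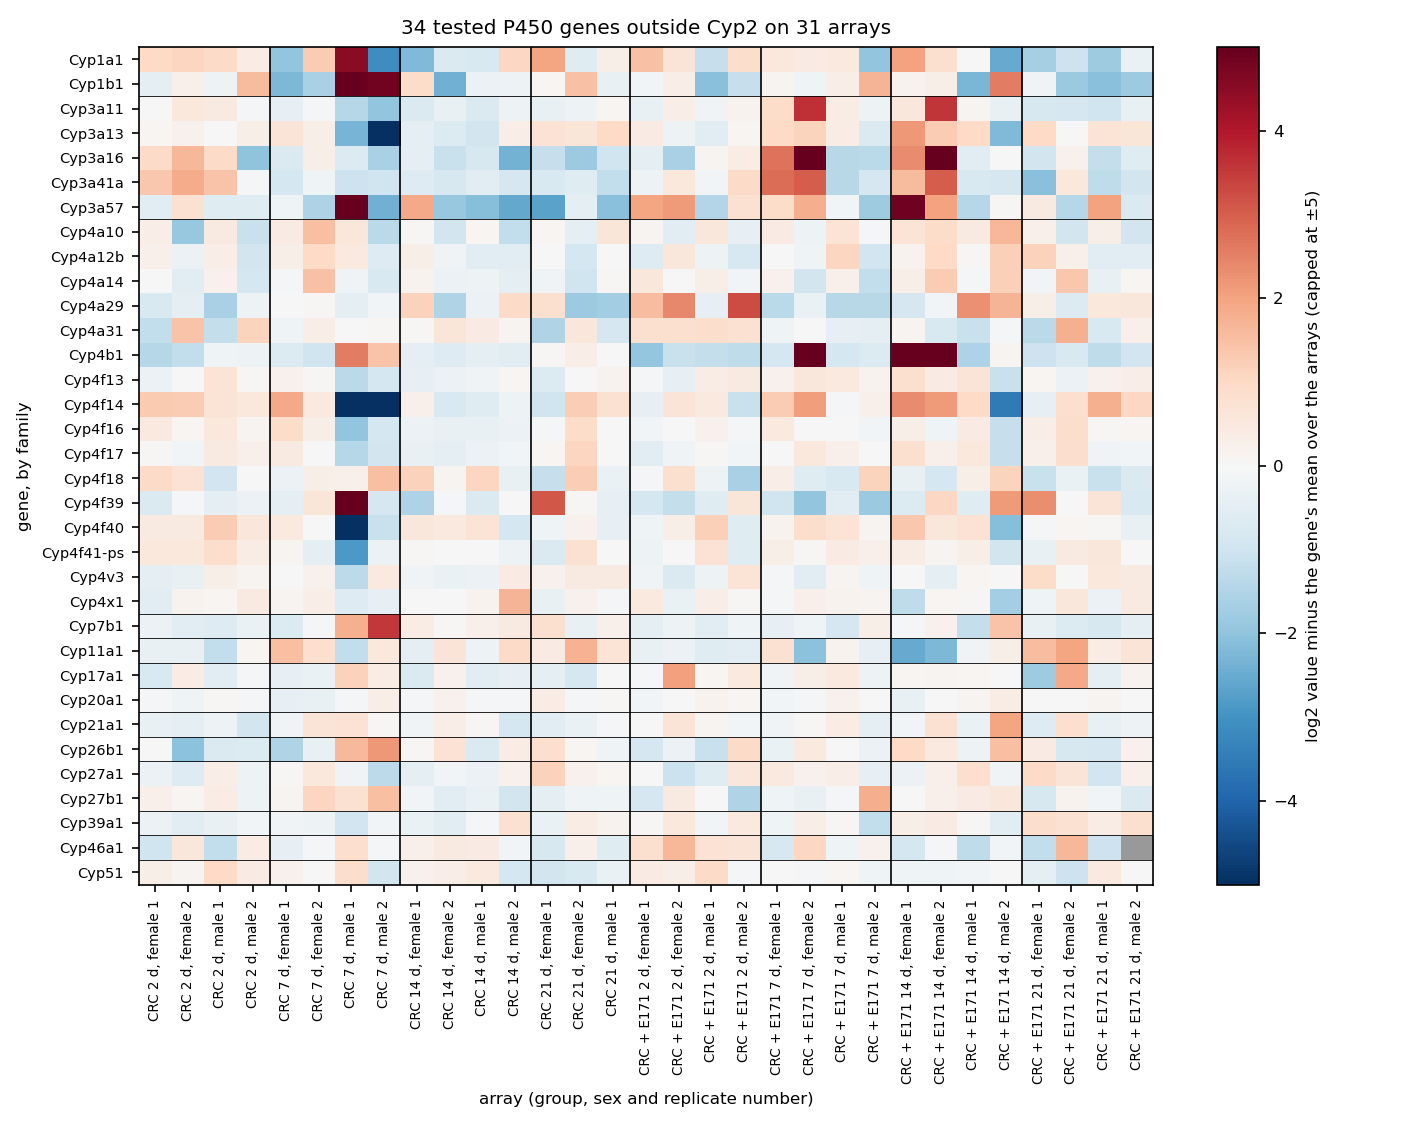
Heat map of the 34 tested genes (rows, by family) on 31 arrays (columns, by group), coloured by log2 value minus the mean of the gene over the arrays. The males of CRC at 7 days are low in Cyp4f14 and Cyp3a13 and high in Cyp1b1, and 3 females of CRC + E171 are high in Cyp4b1.

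Of the 34 tested genes 18 were well above background on all 31 arrays and 5 on fewer than 20 (Cyp1a1, Cyp1b1, Cyp3a16, Cyp3a57 and Cyp4a29). The other 18 were not tested and were well above background on 1 to 11 arrays each. Among these were Cyp7a1 and Cyp8b1 of bile acid synthesis (1 array each), Cyp11b1 and Cyp11b2 of adrenal steroid synthesis (1 each), aromatase Cyp19a1 (7), the vitamin D-degrading Cyp24a1 (5), the retinoic acid-degrading Cyp26a1 and Cyp26c1 (3 each) and the drug-oxidising Cyp1a2 (1). The rest were Cyp3a25, Cyp3a44, Cyp3a59, Cyp4a12a, Cyp4a30b, Cyp4b1-ps2, Cyp4f15, Cyp4f37 and Cyp4x1os. A level near background does not show that a gene is silent. Families 8, 19 and 24 had no tested gene.

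Among the tested genes the spread of the 8 group means ran from 0.27 for Cyp20a1, an orphan P450, to 3.90 for Cyp4f14, with a median of 1.47, and was over 1 for 27 genes. Called here means a linear fold change of at least 1.5 and an unadjusted limma p under 0.05. Where no arrays are said to be left out, called and not called refer to the fit with all 31 arrays. For E171 against CRC this gave 2 called members at 2 days, both higher, 1 of them (Cyp4a29) admitted by the filter only through the group in which it is high, in a comparison that called 1.72% of all genes (1.55% higher and 0.172% lower). At 7 days 6 members rose and 2 fell, where 12.4% of all genes were called (6.93% higher and 5.48% lower). At 14 days 4 rose and 2 fell, where 6.34% were called (3.24% higher and 3.1% lower). At 21 days 0 members were called, and 0 had an unadjusted limma p under 0.05, where 2.67% of all genes were called (0.844% higher and 1.82% lower).

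After Benjamini-Hochberg adjustment over all genes in limma, 0 members passed on any day, as did 0% of all genes. At an unadjusted limma p under 0.05 there were 2, 8, 6 and 0 members in the order of the days, against 2.73, 16.8, 7.98 and 5.8% of all genes. The arrays of both groups did not overlap for 2, 0, 2 and 3 members, against 3.91, 4.85, 5.9 and 8.02% of all genes. The median log2 fold change of the 34 members was -0.06, -0.03, 0.52 and 0.09, and over all genes 0.06, -0.01, 0.01 and 0.02. Without the Hox-low arrays the members' median at 14 days was 0.06.

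**Figure D2:**
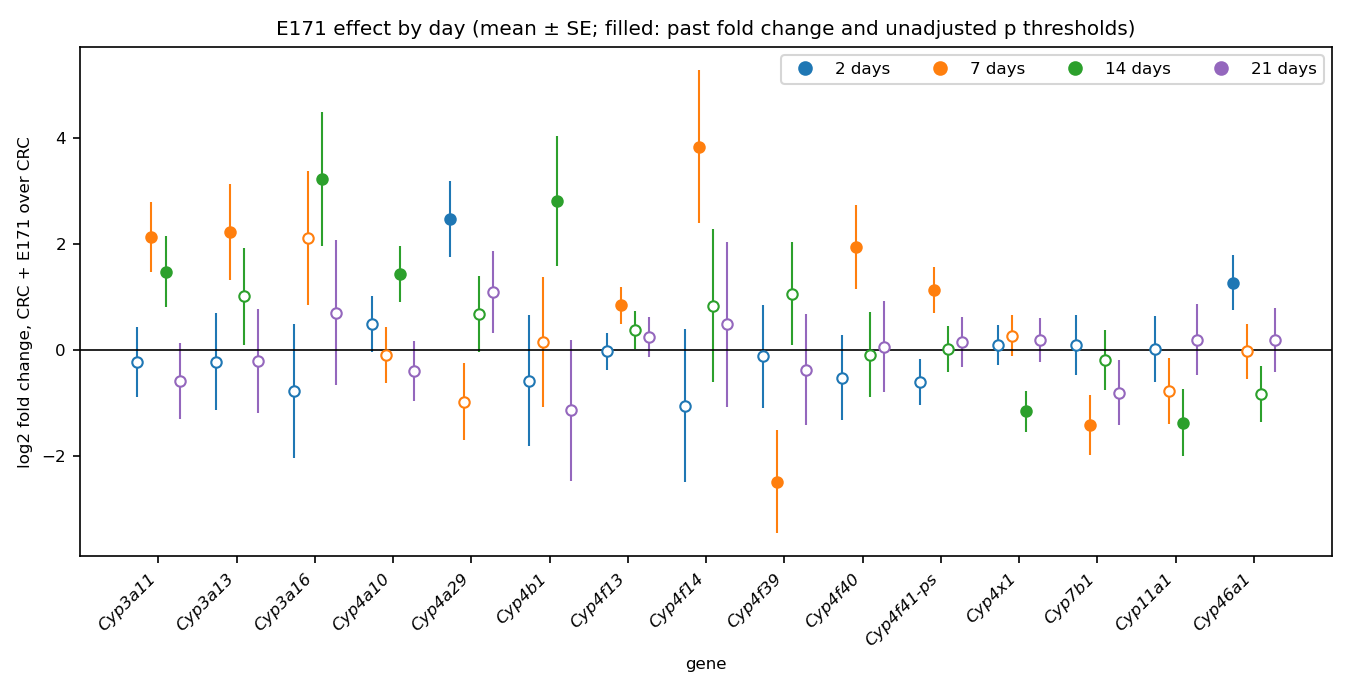
Log2 fold change of CRC + E171 over CRC with its SE (limma) at each day for the members called on at least 1 day, with filled symbols for calls. Cyp4f14 stands at 3.84 and Cyp4f39 at -2.49 at 7 days, and at 21 days 0 symbols are filled.

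Of the 5 tested Cyp3 genes 2 rose at 7 days and 2 at 14 days. Cyp3a13 oxidises drugs and steroids and is expressed in the mouse intestine. In CRC at 7 days it was 0.88, 0.52, -2.08 and -5.54, and in CRC + E171 it was 1.22, 1.33, 0.59 and -0.48. The groups overlapped, and the low values were those of the CRC males. The log2 fold change was 2.22 ± 0.91 (SE, limma adjusted p = 0.237, exact permutation p = 0.2). It was -0.03 without the colonocyte-low arrays and 1.51 on the scan day that held 2 arrays of each group, and the call was lost without CRC male 1 (2.05) or CRC + E171 female 1 (2.04) or CRC male 2 (0.89) or CRC + E171 female 2 (2.0). At 14 days the CRC + E171 arrays were 2.40, 1.51, 1.23 and -1.97 and the CRC arrays -0.25, -0.47, -0.70 and 0.57, a change of 1.01 that was not called, and that was 1.93 (limma adjusted p = 0.0238, called) without the colonocyte-low arrays and -0.15 without the Hox-low ones. It was the single adjusted p under 0.05 of a member in limma in any daily comparison with those arrays left out. In the same comparison the list genes Ppara, Nr1h4 and Sqle passed adjustment too, and 14.1% of all genes were called. Of the CRC + E171 values kept there, 2.40 and 1.51 are those of the Hox-low females and 1.23 is that of male 1.

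Cyp3a11, the major inducible Cyp3a enzyme of mouse liver and a target of Nr1i2, was -4.02, -3.66, -5.03 and -5.60 in CRC at 7 days and -2.71, 0.04, -3.23 and -3.89 in CRC + E171. Female 2 of CRC + E171, a Hox-low array, stood far above the rest. The change was 2.13 ± 0.66 (SE, limma adjusted p = 0.197, exact permutation p = 0.0571), and no single left-out array ended the call. It was 1.30 (limma adjusted p = 0.296, called) without the Hox-low arrays, 1.40 (limma adjusted p = 0.9995, not called) without the colonocyte-low ones and 0.57 (limma adjusted p = 0.9994, not called) without both sets. Within the shared scan day it was 1.56.

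At 14 days Cyp3a11 was -4.33, -4.0, -4.35 and -3.86 in CRC and -3.07, -0.05, -3.50 and -4.01 in CRC + E171, where female 2, again a Hox-low array, was the high one. The change of 1.48 ± 0.66 (SE, limma adjusted p = 0.59, exact permutation p = 0.0857) was 0.38 without the Hox-low arrays and 2.31 within the shared scan day, and it was no longer called without CRC male 1 (1.41) or CRC female 1 (1.41) or CRC + E171 female 2 (0.61). At 21 days it was -3.99, -3.86 and -3.52 in CRC and -4.42, -4.45, -4.62 and -4.01 in CRC + E171, without overlap and not called (-0.59 ± 0.72, SE, limma adjusted p = 0.947, exact permutation p = 0.0571), and it was called as lower without both sets of arrays (limma adjusted p = 0.411).

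Cyp3a16, a form known from fetal and young mouse liver, had the widest group means of its family. At 14 days it was -6.94 (near background), -7.61 (near background), -7.29 (near background) and -8.87 (near background) in CRC and -4.12, -0.18, -7.03 (near background) and -6.50 (near background) in CRC + E171, so the gene was above background only on the Hox-low females. CRC + E171 was at least 3.39-fold higher, and the fitted log2 difference of 3.22 ± 1.27 (SE, limma adjusted p = 0.558, exact permutation p = 0.0571) was not called without the Hox-low arrays, where it was not well above background on any array left at that day. The call also ended without CRC + E171 female 2 (1.80) or CRC male 2 (2.83), and the shared scan day gave 3.78. At 7 days the values in CRC + E171 were -3.79, -0.77, -7.87 (near background) and -7.83 (near background), at least 2.18-fold above CRC, where all 4 arrays were near background. That difference was not called.

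Cyp3a41a, described after its values were seen, is known as a female-specific gene of mouse liver. It was -1.60, -1.37, -5.78 and -5.23 in CRC + E171 at 7 days and -2.80, -1.38, -5.16 and -5.24 at 14 days, with both females above both males each time. In CRC it was -5.26, -4.62, -5.44 and -5.38 at 7 days and -5.05, -5.20, -4.96 and -5.23 at 14 days, where the females were above the males at 7 days too, by a smaller gap, and not at 14 days. Neither daily change was called with all arrays (1.68 and 1.46), and that of 14 days was 1.99 (limma adjusted p = 0.223, called) without the colonocyte-low arrays. The highest group mean was that of CRC at 2 days, at -3.25 ± 0.86 (SD, n = 4). The fifth member, Cyp3a57, was well above background on 11 of 31 arrays and passed the filter only through CRC + E171 at 2 days. It was not called with all arrays, and without the colonocyte-low ones it was called at 14 days and in the mean effect over the 4 days. Of 9 hepatocyte genes 0 were called at 7 days and 1 was lower at 14 days (Alb). Their median was 3.77 on female 1 of CRC + E171 at 7 days, -1.35 to -0.72 on the Hox-low arrays and 0.48 to 2.87 in CRC at 2 days, and their part in the Cyp3a levels was not tested.

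**Figure D3:**
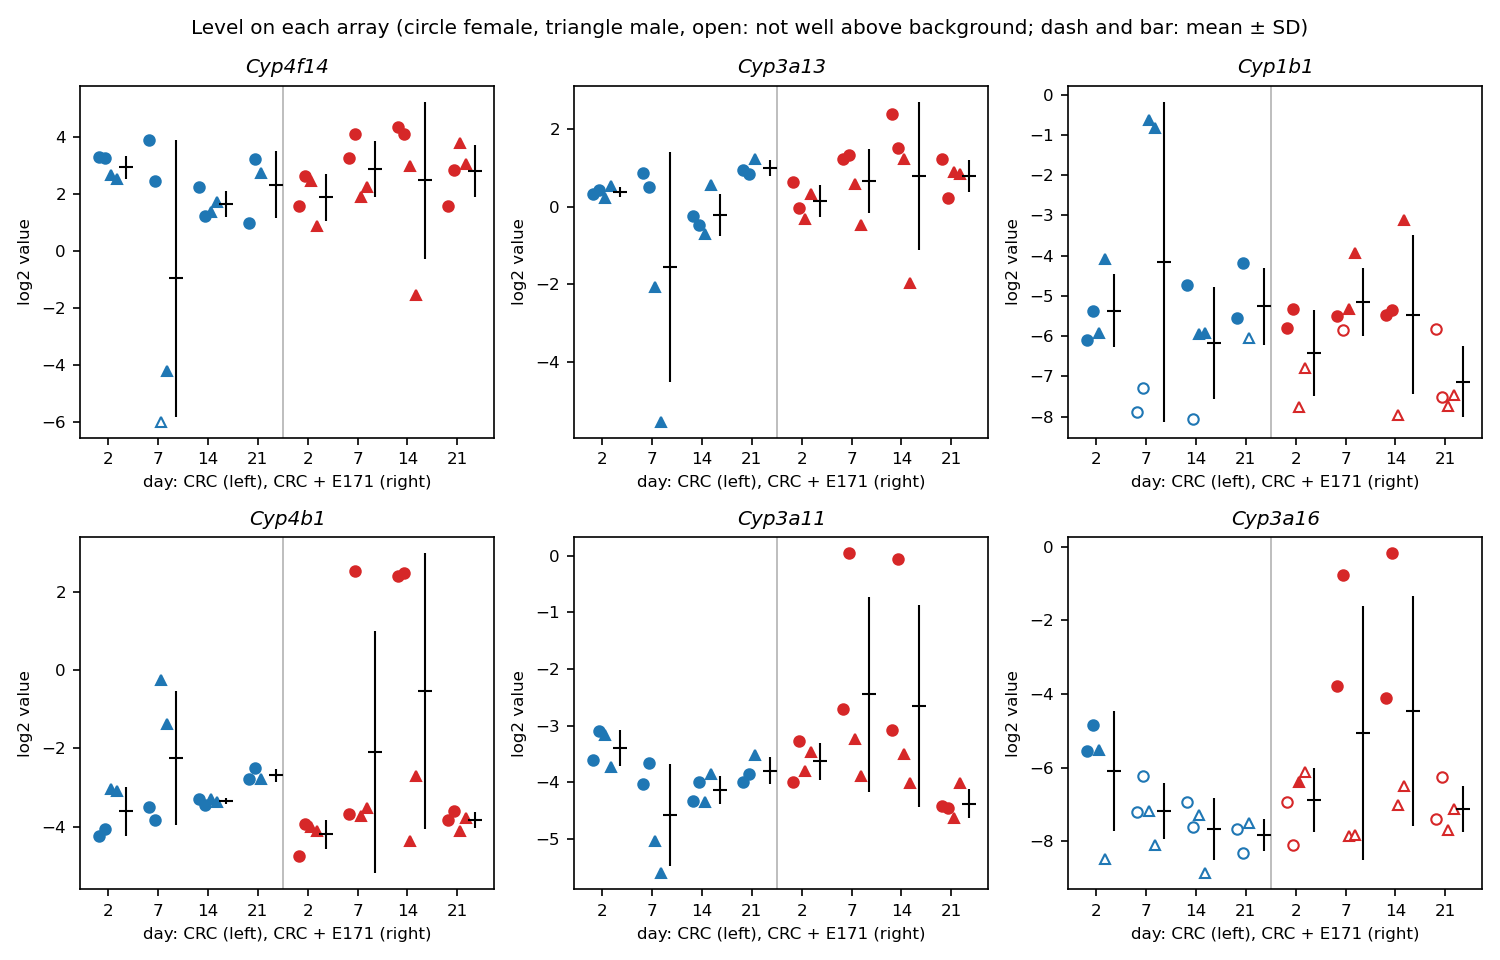
Log2 value of 6 genes on each array at 2, 7, 14 and 21 days in CRC and CRC + E171, with symbols for sex, open where the spot was not well above background, and the group mean and SD. The CRC males of 7 days separate from their females in Cyp4f14, Cyp3a13 and Cyp1b1, and the high values of Cyp4b1, Cyp3a11 and Cyp3a16 are those of CRC + E171 females.

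Promoters of 4 Cyp3a genes are shown because Cyp3a11, Cyp3a16 and Cyp3a41a were each highest on female 2 within CRC + E171 at 7 and at 14 days. Each is the 200 bases before the start site from RefSeq (GRCm38.p6), on the minus strand, 5′ to 3′, at chr5:145879855-145880054, chr5:145469724-145469923, chr5:145720137-145720336 and chr5:137921620-137921819 in the order printed. Capitals mark AGGTCA and AGTTCA, the half-site letters of nuclear receptors, searched on both strands and not overlapping here.
Cyp3a11: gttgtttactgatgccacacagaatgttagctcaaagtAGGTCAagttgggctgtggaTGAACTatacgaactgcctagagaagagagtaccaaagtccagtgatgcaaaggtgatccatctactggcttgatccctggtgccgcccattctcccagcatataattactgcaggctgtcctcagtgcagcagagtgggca
Cyp3a16: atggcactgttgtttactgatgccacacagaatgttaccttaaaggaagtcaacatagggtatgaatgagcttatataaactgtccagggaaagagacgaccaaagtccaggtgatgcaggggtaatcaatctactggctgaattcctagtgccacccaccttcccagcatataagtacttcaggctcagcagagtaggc
Cyp3a41a: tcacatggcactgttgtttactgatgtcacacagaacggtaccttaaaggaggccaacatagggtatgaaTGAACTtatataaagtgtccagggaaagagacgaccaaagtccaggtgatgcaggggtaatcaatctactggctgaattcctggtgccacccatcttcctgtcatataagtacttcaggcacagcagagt
Cyp3a13: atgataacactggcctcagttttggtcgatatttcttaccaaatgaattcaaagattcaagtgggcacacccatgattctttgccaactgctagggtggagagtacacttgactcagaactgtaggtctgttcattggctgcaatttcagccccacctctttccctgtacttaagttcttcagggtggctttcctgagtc

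The windows of Cyp3a16 and Cyp3a41a shared 183 of 196 aligned bases, and that of Cyp3a13 shared 33.2 to 38.3% with the others. AGGTCA was present in the window of Cyp3a11, and AGTTCA in those of Cyp3a11 and Cyp3a41a. Of 32851 promoter windows of this length 11.4 and 9.28% held these motifs, and of the 43 windows found for 35 member genes 8 held each. The motif GCGTG, the core letters bound by Ahr, was in 24.7% of all windows and in 7 of the 43, Cyp1a1 and Cyp1b1 included.

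The Cyp1 genes, Ahr targets that activate polycyclic carcinogens, were not called on any day with all arrays. Cyp1b1 in CRC at 7 days was -7.88 (near background), -7.29 (near background), -0.62 and -0.82, with the males far above the females. These 2 arrays and male 2 of CRC + E171 at 14 days (-3.11) are the colonocyte-low arrays, and the other 28 ran from -8.07 to -3.94. Against -5.51, -5.85 (near background), -5.33 and -3.94 in CRC + E171 the change at 7 days was -1.0 ± 1.24 (SE, limma adjusted p = 0.727, exact permutation p = 0.6), and without the colonocyte-low arrays it turned and was called as higher in CRC + E171 (limma adjusted p = 0.9995). Both CRC arrays left there are near background, so the size of that difference is not known. Cyp1a1, well above background on 18 of 31 arrays, was highest on male 1 of CRC at 7 days (-1.26). At 21 days all 4 CRC + E171 arrays were near background for both genes and 2 of the 3 CRC arrays were above it. CRC was at least 1.66-fold higher for Cyp1a1 and 1.55-fold for Cyp1b1, with fitted differences of -1.76 ± 1.23 (SE, limma adjusted p = 0.902, exact permutation p = 0.0857) and -1.87 ± 1.34 (SE, limma adjusted p = 0.905, exact permutation p = 0.0857). Without the colonocyte-low arrays, none of which is of that day, both differences were called as lower in CRC + E171 (limma adjusted p = 0.492 and 0.452), and without both sets only that of Cyp1b1 was (limma adjusted p = 0.382).

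Cyp4 was the largest family, with 16 tested genes, of which 4 rose and 1 fell at 7 days. Cyp4f14, a leukotriene B4 hydroxylase, was 3.89, 2.46, -5.99 (near background) and -4.23 in CRC and 3.25, 4.09, 1.90 and 2.24 in CRC + E171. The CRC females were at the level of CRC + E171 and the CRC males far below it. The log2 fold change was 3.84 ± 1.45 (SE, limma adjusted p = 0.215, exact permutation p = 0.314), and it was -0.30 (limma adjusted p = 0.9995, not called) without the colonocyte-low arrays, 3.43 (limma adjusted p = 0.326, called) without the Hox-low ones and 3.63 within the shared scan day. Leaving out CRC male 1 (2.16) or CRC male 2 (2.75) was enough to end the call. At 14 days male 2 of CRC + E171, the third colonocyte-low array, was again the low one (4.36, 4.10, 2.99 and -1.55). The change of that day was 0.83, and 2.17 (limma adjusted p = 0.0571, called) without the colonocyte-low arrays.

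Of the other genes of the Cyp4f cluster on chromosome 17, Cyp4f13, Cyp4f16, Cyp4f17 and Cyp4f40 were lower on both CRC males of 7 days than on the other arrays of that day, and Cyp4f41-ps was lowest on male 1. Cyp4f40 was -1.57, -2.08, -7.27 (near background) and -3.18 in CRC and -1.88, -1.18, -1.37 and -1.92 in CRC + E171, a change of 1.94 ± 0.80 (SE, limma adjusted p = 0.237, exact permutation p = 0.114) that was lost without CRC male 1 (0.69) or CRC + E171 female 2 (1.80). Cyp4f13 was 0.02, -0.10, -1.54 and -1.05 against 0.02, 0.38, 0.30 and 0.01, a change of 0.84 ± 0.35 (SE, limma adjusted p = 0.239, exact permutation p = 0.0571) that was lost without CRC male 1 (0.55) or CRC male 2 (0.72) or CRC + E171 female 2 (0.78). The pseudogene Cyp4f41-ps was -4.26, -4.86, -7.26 (near background) and -4.69 against -4.10, -4.32, -3.99 and -4.14, a change of 1.13 ± 0.44 (SE, limma adjusted p = 0.221, exact permutation p = 0.0571) that was lost without CRC male 1 (0.47). Without the colonocyte-low arrays these 3 differences were 0.24, 0.22 and 0.42, none of them called. Within the shared scan day they were 2.79, 0.92 and 1.72.

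Cyp4f39, also of the Cyp4f cluster on chromosome 17, hydroxylates the very long fatty acids of skin ceramides. This gene was the Cyp4 gene that fell at 7 days. It was -5.39, -4.33, 0.40 and -5.78 in CRC and -5.91, -6.92 (near background), -5.47 and -6.77 (near background) in CRC + E171. Male 1 of CRC stood far above the other arrays, and on that array the median of 7 squamous epithelium genes was 7.58, the highest of all arrays. The change was -2.49 ± 0.97 (SE, limma adjusted p = 0.224, exact permutation p = 0.0571), and without CRC male 1 (-1.10) it was not called. The shared scan day, which holds that male, gave -3.19. The part of the squamous genes in this difference was not tested.

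On the colonocyte-low arrays 6 of the 34 members lay below all other arrays (Cyp3a13, Cyp4f13, Cyp4f14, Cyp4f16, Cyp4f17 and Cyp4f40) and 3 lay above all others (Cyp1b1, Cyp7b1 and Cyp26b1). Of 19741 genes with a value on every array 5.69% lay below and 4.12% above. At 7 days E171 against CRC called 7 of 9 surface colonocyte genes, 6 of 7 goblet cell genes and 8 of 8 pan-epithelial genes higher and 3 of 7 neutrophil genes lower. It also called 3 of 7 enteroendocrine genes higher and 3 of 7 macrophage, 3 of 7 pancreatic acinar, 2 of 6 endothelial and 1 of 7 fibroblast genes lower. The neutrophil median was 4.31 and 6.12 on the CRC males and -1.89 to 1.71 on the 4 CRC + E171 arrays. The part of these cell types in the P450 differences was not tested. Without the colonocyte-low arrays 0 of the 8 calls of 7 days remained, and 3 other members were called (Cyp1b1, Cyp4a14 and Cyp11a1), where 2.65% of all genes were. At 14 days 13 members were called without these arrays, where 14.1% of all genes were. They were the 6 called with all arrays, each in the same direction, and 7 others. Of these, Cyp3a13, Cyp3a41a, Cyp3a57, Cyp4f13, Cyp4f14 and Cyp4f17 were higher and Cyp7b1 was lower.

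**Figure D4:**
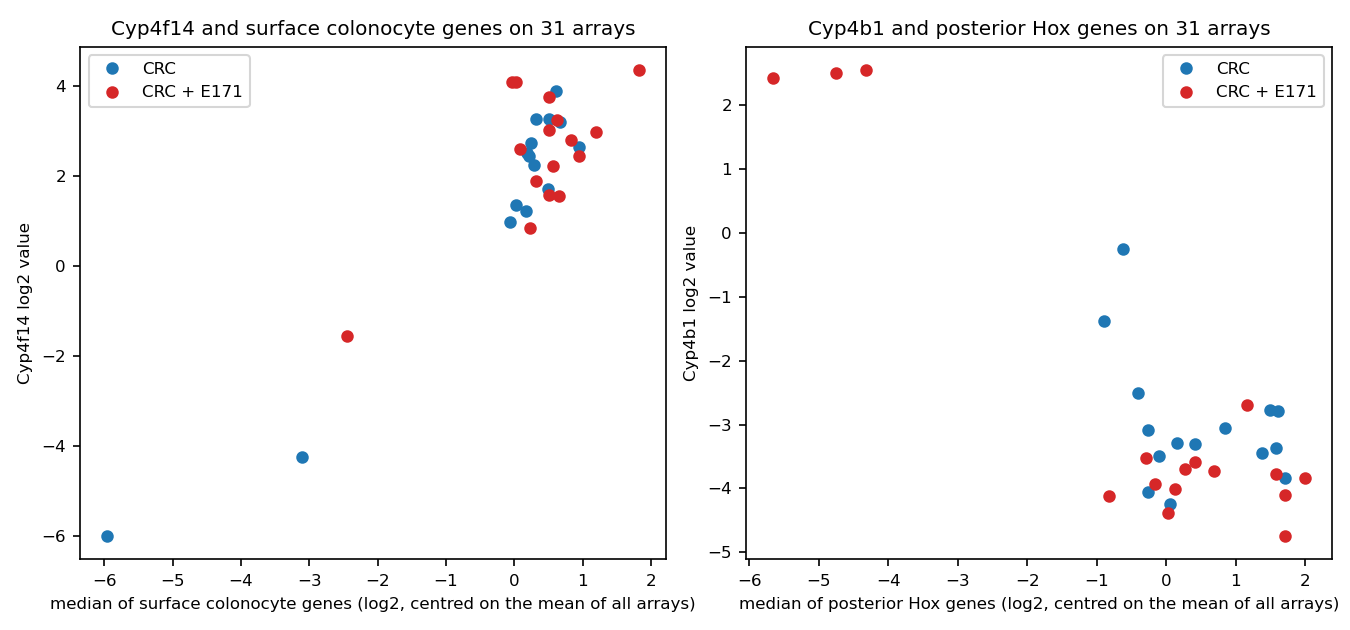
Log2 value of Cyp4f14 against the median of 9 surface colonocyte genes and of Cyp4b1 against the median of 6 posterior Hox genes, 1 point per array, with CRC and CRC + E171 in different colours. The 3 arrays lowest in surface colonocyte genes are the lowest in Cyp4f14, and the 3 lowest in posterior Hox genes hold the Cyp4b1 values of 2.42 to 2.54.

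Cyp4b1, which acts on fatty acids and foreign compounds and is known from lung and bladder, rose at 14 days. It was -3.29, -3.45, -3.30 and -3.36 in CRC and 2.42, 2.50, -4.38 and -2.70 in CRC + E171, where the Hox-low females were high and the males were not. Female 2 of CRC + E171 at 7 days, the third Hox-low array, was at 2.54, and the other 28 arrays lay between -4.74 and -0.26. The change at 14 days was 2.81 ± 1.23 (SE, limma adjusted p = 0.59, exact permutation p = 0.314), and 3.20 within the shared scan day. It was lost without CRC + E171 female 1 (1.82) or CRC + E171 female 2 (1.80) or CRC female 2 (2.78). It was -0.19 (limma adjusted p = 0.9995, not called) without the Hox-low arrays. Without both sets, which leaves 1 CRC + E171 array that is assumed to vary like the other groups, it was -1.03 (limma adjusted p = 0.264, called). At 7 days, without the Hox-low arrays, Cyp4b1 changed by -1.40 (limma adjusted p = 0.306, called), against 0.15 with them. At 21 days it was -2.77, -2.51 and -2.79 in CRC and -3.84, -3.59, -4.11 and -3.78 in CRC + E171, without overlap and not called (-1.14 ± 1.33, SE, limma adjusted p = 0.944, exact permutation p = 0.0286), and it was called as lower without both sets (limma adjusted p = 0.27).

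Besides Cyp4b1, the Hox-low arrays were above all others in Cyp4f14 (4.09 to 4.36) and Cyp3a13 (1.33 to 2.40) and below all others in Cyp11a1 (-6.34 to -5.84). Of 19741 genes 2.54% lay above and 1.12% below. At 14 days E171 against CRC called 4 of 6 posterior Hox genes lower and 3 of 8 small intestinal enterocyte genes higher, and the enterocyte median reached 4.55 on a CRC + E171 array. The part of these lists in the P450 differences was not tested. Without the Hox-low arrays 4 members were called at 14 days (Cyp4a10, Cyp4a29 and Cyp21a1 higher, Cyp4x1 lower), where 3.09% of all genes were.

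Cyp4a10, a fatty acid hydroxylase and PPAR alpha target, was -5.17, -6.15 (near background), -5.13 and -6.47 in CRC at 14 days and -4.54, -4.30, -4.78 and -3.56 in CRC + E171, and the groups did not overlap. The change was 1.43 ± 0.52 (SE, limma adjusted p = 0.532, exact permutation p = 0.0286), and 0.0286 is the smallest permutation p for groups of this size. It was 1.56 (limma adjusted p = 0.9995, called) without the Hox-low arrays and 1.19 (limma adjusted p = 0.187, called) without the colonocyte-low ones. Without both sets, which leaves 1 CRC + E171 array, it was 0.95. Within the shared scan day it was 1.22, and no single left-out array ended the call. Ppara itself rose by 1.67 ± 0.79 (limma adjusted p = 0.61) at 14 days. Of the list of fatty acid oxidation genes and PPAR alpha targets 4 of 15 rose, and the list's median was 0.64, against 0.01 over all genes. At 7 days 2 of its genes rose and 1 fell. At 14 days without the Hox-low arrays 0 of the 15 genes were called higher and 0 lower (median -0.08) and Ppara changed by -0.18 (limma adjusted p = 0.9995, not called). At 14 days without the colonocyte-low ones 11 of the 15 genes were called higher and 0 lower (median 0.96) and Ppara changed by 2.71 (limma adjusted p = 0.0346, called).

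Cyp4x1, an orphan P450 known from brain, fell at 14 days from -4.37, -4.38, -4.19 and -2.64 in CRC to -5.62, -4.26, -4.30 and -6.07 (near background) in CRC + E171. The highest CRC array was the one labelled male 2 that Xist contradicts. The change was -1.16 ± 0.38 (SE, limma adjusted p = 0.532, exact permutation p = 0.229). It was -0.74 (limma adjusted p = 0.705, called) without that array and -0.88 within the shared scan day. Of the CRC + E171 values, -5.62 and -4.26 are those of the Hox-low females and -6.07 is that of the colonocyte-low male. The change was called without the Hox-low arrays and without the colonocyte-low ones. Without both sets CRC + E171 keeps only male 1 (-4.30).

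Cyp4a29, of the Cyp4a cluster on chromosome 4, was called at 2 days. It had passed the filter on dim probes only through CRC + E171 at 2 days, the group in which it is high, so the call supports nothing beyond that group's level. It was -7.55 (near background), -7.24 (near background), -8.43 (near background) and -7.06 (near background) in CRC and -5.27, -4.38, -7.21 (near background) and -3.52 in CRC + E171, so it was well above background on 0 of 4 and on 3 of 4 arrays. CRC + E171 was at least 2.35-fold higher, the fitted difference was 2.47 ± 0.72 (SE, limma adjusted p = 0.9992, exact permutation p = 0.0571), and the shared scan day gave 0.91. No single left-out array ended this call. At 7 days it was near background on all 8 arrays.

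Cyp4a29 was also the single member called in the mean E171 effect over the 4 days, at 0.81 ± 0.37 (SE, limma adjusted p = 0.496). This fitted mean takes in the group through which the gene passed the filter and days near background, and is no measured size. In that comparison 1.79% of all genes were called (0.591% higher and 1.2% lower). The call was lost when any of 13 of the 31 arrays was left out, with changes of 0.68 to 0.79. On the adjusted scale 0 members passed in limma, against 0.00505% of all genes, and 2 had an unadjusted p under 0.05, against 9.97%. The other was Cyp39a1, under the fold limit.

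Of the remaining Cyp4 genes Cyp4a12b, Cyp4a14, Cyp4a31, Cyp4f16, Cyp4f17, Cyp4f18 and Cyp4v3 were called on no day with all arrays. Cyp4a14 at 7 days and Cyp4f17 at 14 days were called without the colonocyte-low arrays. Cyp4f18, a leukotriene B4 hydroxylase of neutrophils, had log2 differences of -0.74 to -0.43 on the 4 days, none called. In the list of leukotriene and prostaglandin enzymes 1 of 12 rose and 4 fell at 7 days, among them Alox5 (-0.98 ± 0.28, limma adjusted p = 0.197) and Alox5ap (-1.69 ± 0.51, limma adjusted p = 0.197), which act together in making leukotrienes. With the colonocyte-low arrays left out 0 of the 12 genes were called higher and 0 lower (median -0.0013).

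Among the genes of bile acid and cholesterol metabolism, Cyp46a1, the cholesterol 24-hydroxylase of brain, was called at 2 days. It was -4.11, -2.52, -4.31 and -2.71 in CRC and -2.29, -1.45, -2.38 and -2.46 in CRC + E171, and the groups did not overlap. The change was 1.27 ± 0.52 (SE, limma adjusted p = 0.9992, exact permutation p = 0.0286). It was 0.28 on the scan day that held 2 arrays of each group, and the call was lost without CRC male 1 (0.97) or CRC female 1 (1.03) or CRC + E171 female 2 (1.04). The value of Cyp46a1 on male 2 of CRC + E171 at 21 days is missing, and the fit of that day used the other 3.

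Cyp7b1, the oxysterol 7-hydroxylase of the alternative bile acid path, was -3.66, -3.07, -1.21 and 0.55 in CRC at 7 days and -3.40, -3.19, -3.82 and -2.69 in CRC + E171, where the CRC males were the high values. The fall was -1.43 ± 0.57 (SE, limma adjusted p = 0.23, exact permutation p = 0.257), and it was 0.09 without the colonocyte-low arrays and -1.17 within the shared scan day. Leaving out CRC male 1 (-1.21) or CRC + E171 male 1 (-1.24) or CRC male 2 (-0.63) ended the call. At 21 days it was -2.19, -3.38 and -2.72 in CRC and -3.38, -3.66, -3.78 and -3.46 in CRC + E171, without overlap and not called (-0.81 ± 0.62, SE, limma adjusted p = 0.915, exact permutation p = 0.0286). Without the colonocyte-low arrays, none of which is of that day, it was -0.81 (limma adjusted p = 0.403, called).

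Cyp39a1, an oxysterol hydroxylase, had its lowest group mean in CRC at 7 days, at 0.30 ± 0.39 (SD, n = 4), and its highest in CRC + E171 at 21 days, at 1.37 ± 0.23 (SD, n = 4). At 21 days it was 0.35, 1.05 and 0.85 in CRC and 1.57, 1.42, 1.04 and 1.46 in CRC + E171. The mean effect over the 4 days was 0.35 ± 0.15 (SE, limma adjusted p = 0.496). In the bile acid transport and sensing list 4 of 11 genes rose at 7 days, and 5 rose and 1 fell at 14 days. The nuclear bile acid receptor Nr1h4 rose by 1.41 ± 0.51 (limma adjusted p = 0.207) at 7 days and by 1.21 ± 0.51 (limma adjusted p = 0.586) at 14 days. The ileal bile acid-binding protein Fabp6 rose by 2.14 ± 0.96 (limma adjusted p = 0.59) at 14 days. The gene that fell was the bile acid receptor Gpbar1 (-0.70 ± 0.29, limma adjusted p = 0.58). The list's median ran from -0.35 to 2.03 in CRC + E171 at 14 days, the group with 2 Hox-low arrays and the enterocyte median of 4.55, and -1.42 to -0.07 in CRC at 7 days. Without the Hox-low arrays 0 of the 11 genes were called higher and 0 lower (median -0.22) at 14 days, and Nr1h4 changed by 0.11 (limma adjusted p = 0.9995, not called) and Fabp6 by 0.14 (limma adjusted p = 0.9995, not called). Without the colonocyte-low ones 7 of the 11 genes were called higher and 1 lower (median 1.20) at 14 days, with Nr1h4 at 1.90 (limma adjusted p = 0.0238, called) and Fabp6 at 3.0 (limma adjusted p = 0.057, called), and 0 of the 11 genes were called higher and 1 lower (median 0.59) at 7 days.

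Cyp51, the lanosterol demethylase of cholesterol synthesis, was not called in E171 against CRC on any day. Its group mean was highest in CRC at 2 days, at 0.57 ± 0.37 (SD, n = 4), and lowest in CRC at 21 days, at -0.55 ± 0.30 (SD, n = 3). Of 23 other genes of that pathway 1 rose at 7 days (Stard4, 0.77 ± 0.33, limma adjusted p = 0.246), 1 fell at 14 days (Sqle, -0.77 ± 0.23, limma adjusted p = 0.532) and 1 rose at 21 days (Ebp, 0.59 ± 0.21, limma adjusted p = 0.854). Stard4 was not called without the colonocyte-low arrays (-0.17, limma adjusted p = 0.9995, not called), nor Sqle without the Hox-low ones (-0.55, limma adjusted p = 0.9995, not called). Sqle passed adjustment without the colonocyte-low arrays, at -1.03 (limma adjusted p = 0.029, called).

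The vitamin D-activating Cyp27b1 was -5.43, -5.81, -5.62 and -6.19 in CRC at 14 days and -5.32, -5.04, -4.89 and -4.72 in CRC + E171, without overlap and not called (0.77 ± 0.40, SE, limma adjusted p = 0.637, exact permutation p = 0.0286). Its group means were highest in CRC at 7 days, at -4.42 ± 0.58 (SD, n = 4), and lowest in CRC + E171 at 2 days, at -5.77 ± 0.86 (SD, n = 4). Cyp27a1, the cholesterol 27-hydroxylase, was called on no day. Of 8 vitamin D response genes 4 rose at 7 days, the metal transporter Slc30a10 by 4.34 ± 1.59 (limma adjusted p = 0.208). The list's median ran from -2.57 to 0.07 over the CRC arrays of that day, 2 of them colonocyte-low, and from -0.38 to 0.53 over those of CRC + E171. When the colonocyte-low arrays were left out, 0 of the 8 genes were called higher and 0 lower (median 0.25) and Slc30a10 changed by 2.27 (limma adjusted p = 0.9995, not called).

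Cyp11a1, the side-chain cleavage enzyme that starts steroid synthesis, fell at 14 days from -4.30, -3.16, -4.06 and -2.86 in CRC to -6.34, -6.07, -3.97 and -3.51 in CRC + E171, with the Hox-low females lowest. The change was -1.38 ± 0.63 (SE, limma adjusted p = 0.6, exact permutation p = 0.171), -0.15 without the Hox-low arrays and -0.61 within the shared scan day, and it was not called without CRC + E171 female 1 (-0.92) or CRC + E171 female 2 (-1.01) or CRC male 2 (-1.13) or CRC female 2 (-1.23). Its 2 probes gave -2.08 (well above background on 18 arrays) and -0.68 (on 31). Of 12 steroid synthesis genes 6 rose and 1 fell at 7 days, Hsd3b3 by 4.17 ± 1.41 (limma adjusted p = 0.201), and at 14 days 1 fell (Hsd17b1, -1.52 ± 0.53, limma adjusted p = 0.532). The median of these genes ran from -1.63 to 0.44 over the CRC arrays of 7 days and from 0.15 to 0.52 over those of CRC + E171. After leaving out the colonocyte-low arrays, 0 of the 12 genes were called higher and 0 lower (median 0.07) at 7 days, and Hsd3b3 changed by 0.86 (limma adjusted p = 0.9995, not called).

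Cyp21a1, the 21-hydroxylase, did not overlap at 2 days (-4.14, -4.23, -4.01 and -4.67 in CRC, -3.73, -3.11, -3.61 and -3.89 in CRC + E171) and was not called (0.68 ± 0.38, SE, limma adjusted p = 0.9992, exact permutation p = 0.0286). It was called as higher without the colonocyte-low arrays and without both sets (limma adjusted p = 0.987 and 0.93). Cyp17a1, the 17-hydroxylase, had its highest group mean in CRC + E171 at 2 days (0.26, 2.41, 0.45 and 0.86), against -0.39, 0.75, -0.17 and 0.28 in CRC, and was called on no day. Cyp26b1, which breaks down retinoic acid, was -2.42, -1.29, 0.72 and 1.26 in CRC at 7 days, with the colonocyte-low males above the 28 other arrays, and -1.26, -0.43, -0.88 and -1.22 in CRC + E171. It was not called (-0.51 ± 0.62, SE, limma adjusted p = 0.72, exact permutation p = 0.6). In retinoid metabolism 1 of 15 genes rose at 2 days (Aldh1a3, 1.49 ± 0.65, limma adjusted p = 0.9992), 1 rose at 7 days (Stra6, 2.26 ± 0.66, limma adjusted p = 0.197), and 2 rose and 2 fell at 14 days. Cyp20a1 varied least, between -2.75 and -1.96 over all arrays.

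Of the genes that serve P450 enzymes, 0 of 6 electron donors were called at 7 or 14 days (2 were called higher at 14 days without the colonocyte-low arrays, and 1 without the array labelled male 2 of CRC at 14 days), and Por changed by 0.05 ± 0.31 (limma adjusted p = 0.96) and 0.63 ± 0.31 (limma adjusted p = 0.629). Ahr changed by -0.01 ± 0.16 (limma adjusted p = 0.991) at 7 days, and of 9 Ahr target genes 0 were called at 7 days and 3 rose at 14 days, Nqo1 by 1.20 ± 0.46 (limma adjusted p = 0.547). In the list of 23 nuclear receptors and Ahr 7 genes rose and 1 fell at 7 days, and 3 rose at 14 days (Rxra, Nr1h4 and Ppara). Nr1i2 rose by 2.59 ± 0.84 (limma adjusted p = 0.197) and Hnf4a, which keeps epithelial and liver genes on, by 2.43 ± 0.81 (limma adjusted p = 0.201). These rises came with those of the pan-epithelial and surface colonocyte genes given above, whose part in them was not tested. With the colonocyte-low arrays left out 0 of the 23 genes were called higher and 1 lower (median 0.03), and Nr1i2 changed by 0.22 (limma adjusted p = 0.9995, not called) and Hnf4a by 0.02 (limma adjusted p = 0.9995, not called). At 14 days 9 of the 23 genes were called higher without the colonocyte-low arrays and 0 without the Hox-low ones. Nqo1 at 14 days changed by 0.44 (limma adjusted p = 0.9995, not called) without the Hox-low arrays. Of the P450 genes under other names, prostacyclin synthase Ptgis fell at 7 days by 0.93 ± 0.43 (limma adjusted p = 0.276) (a log2 change of -0.29 without the colonocyte-low arrays, not called) and thromboxane synthase Tbxas1 was called on no day.

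Between days 0 members passed an adjusted p under 0.05 in limma, as did 0% of all genes. At an unadjusted p there were 3 members over the CRC groups, 6 over the CRC + E171 groups and 3 for a difference of the E171 effect between days, against 9.89, 14.6 and 6.52% of all genes. The smallest adjusted p were 0.492 for Cyp27b1 over the CRC groups, 0.187 for Cyp4a29 over the CRC + E171 groups, which rests on the group that admitted it, and 0.717 for Cyp27b1 for the difference of the effect.

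Between males and females 0 members passed an adjusted p under 0.05 in limma, against 0.0556% of all genes, and 7 had an unadjusted p under 0.05, against 8.79%. By fold change and unadjusted p 2.98% of all genes were called (1.16% higher and 1.82% lower in males), and 5 members met these limits, all lower in males (Cyp3a11, Cyp3a13, Cyp3a16, Cyp3a41a and Cyp4f14). The log2 difference of males from females was -1.17 ± 0.36 (SE, limma adjusted p = 0.316) for Cyp3a41a, -1.66 ± 0.57 (SE, limma adjusted p = 0.361) for Cyp3a16 and -1.71 ± 0.67 (SE, limma adjusted p = 0.447) for Cyp4f14. The Hox-low arrays are all of females and the colonocyte-low arrays all of males. Without both sets these differences were -0.74, -0.81 and -0.09, and 0 members met the limits of fold change and unadjusted p. Without the Hox-low arrays 2 members were lower and 1 was higher in males, with Cyp3a41a the only one of the 5 among them. Without the colonocyte-low arrays 3 were lower, Cyp3a16 and Cyp3a41a among them. Without the array labelled male 2 of CRC at 14 days the differences were -1.21, -1.63 and -1.79, and the same 5 members met the limits.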

How the data were processed

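The authors labelled distal colon RNA, hybridised 1 array per mouse (31 one-colour arrays on 8 slides, scanned on 3 days) and extracted the spots with Feature Extraction 10.7.3.1. The deposited intensity of a spot is background-subtracted and not normalized between arrays. The log2 values that the authors also deposited had been filtered, imputed and normalized by a method not given in the sources used here, and served as an alternative. Each of these 31 columns matched its own array best (Spearman's rho of 0.994 or more).

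From the deposited intensity, log2 values were taken, flagged spots left out, and the array's 75th percentile subtracted. A probe was kept where at least 60% of the arrays of a group were well above background with a mean log2 signal of 4 or more, and the probes of a gene were averaged. A limma model (version 3.58.1, R 4.3.3) with 1 mean per group gave all contrasts, with Benjamini-Hochberg adjustment over 19797 genes, and the code was tested on simulated data. Exact permutation tests were two-sided. P-values measure the spread between these mice. No slide held both groups of a day, so slide and E171 cannot be told apart within a day, and 1 scan day per time point held 2 arrays of each group.

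The members and lists were chosen with earlier results of these data known. Genes given array by array were those called in a daily comparison or in the mean effect, any of the 3 smallest p among members past adjustment between days or sexes (there were 0), and the member with the widest group means in each family. Of the lists, at most 3 called genes per comparison are named, by smallest p, and other names were chosen after their values were seen. Leaving out the arrays low in posterior Hox genes (list median under -3), in surface colonocyte genes (under -2), both, or the array that Xist contradicts was chosen after seeing the data. The other alternatives were quantile normalization, normexp background with an offset of 50, no filter, the brightest probe, array weights, slide, scan day, sex and replicate terms, fitting only the groups compared, a log2 fold change of 1.5, and leaving out each array. Same-numbered arrays of both groups deviated together in every pair at 21 days and not at the other days, and the replicate block left the calls of 21 days at 0. The number of arrays limits the precision.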

Additional observations from a re-analysis of the deposited data

Results flagged for a closer look

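Of 160 groups of 4 arrays checked over the 23 genes given array by array, 11 held an array far from the other 3, and chance alone would mark about 5% of groups. Array female 2 of CRC + E171 at 7 days, which was low in posterior Hox genes, was at 2.54 for Cyp4b1 against -3.72 to -3.52 on the others, and at -7.13 for Cyp4a29, near background, against -8.19 to -8.15. In the same group male 2 was at -3.48 for Cyp27b1 against -5.67 to -5.39. Male 1 of CRC at 7 days, low in surface colonocyte genes, was at -0.28 for Cyp39a1 against 0.44 to 0.55.

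The array labelled male 2 of CRC at 14 days, whose Xist goes against its label, was at -2.64 for Cyp4x1 against -4.38 to -4.19 and at -2.93 for Cyp4f40 against -1.56 to -1.39. Female 2 of that group was at -2.15 for Cyp20a1 against -2.45 to -2.42. At 2 days female 2 of CRC + E171 was at -1.45 for Cyp46a1 against -2.46 to -2.29, and male 1 of CRC was at -0.79 for Cyp4f40 against -1.61 to -1.48. Male 2 of CRC + E171 at 14 days was at 0.34 for Cyp17a1 against 0.48 to 0.49. Female 1 of CRC + E171 at 21 days was at -5.82 for Cyp1b1 against -7.73 to -7.46, all near background. What set these arrays apart was not tested.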

How the results depend on the processing

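After adjustment in limma, 1 member of a daily comparison passed with arrays left out in sets (Cyp3a13 at 14 days, without the colonocyte-low arrays). The counts of called members moved with the processing, and the cause was not tested. For the alternative settings of this paragraph the shares of all genes called are not given. Whether the members moved more than other genes is thus not known. E171 against CRC at 2 days called 2 members, and 0 in the authors' values, where Cyp4a29 was not among the genes tested. It called 6 with array weights, 4 when only the groups compared were fitted and 1 at a log2 fold change of 1.5. At 7 days 8 became 3 with array weights, 3 with only the groups compared and 5 at a log2 fold change of 1.5. At 14 days 6 became 10 with no filter, 10 with array weights and 2 at a log2 fold change of 1.5. At 21 days 0 became 2 with normexp background, 2 with no filter, 4 with array weights and 6 with only the groups compared. The mean effect called 1, and 4 with normexp, 2 with no filter, 2 with the brightest probe, 4 with array weights, 2 with scan day, 5 with sex as a covariate, 2 with slide as a fixed block and 0 at a log2 fold change of 1.5. Array weights brought 3 members past the adjusted threshold between days in the CRC + E171 arrays.

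Without the colonocyte-low arrays the daily counts were 4, 3, 13 and 3 and the mean effect called 2, where 2.18, 2.65, 14.1, 4.3 and 1.64% of all genes were called. These counts hold Cyp4a29 at 2 days and Cyp3a57 at 14 days and in the mean effect, both of which passed the filter only through CRC + E171 at 2 days. Without the Hox-low arrays the mean effect called 2 (0.647% of all genes). Without both sets the counts were 5, 1, 6 and 4, and 2 for the mean effect, where 2.34, 2.77, 9.9, 4.69 and 0.889% of all genes were called. Without the array labelled male 2 of CRC at 14 days 1 member was called at 21 days (2.63% of all genes). Among the differences called with all arrays, some of 7 days turned direction without the colonocyte-low arrays and without both sets. They were those of Cyp3a13 (-0.032 and -0.25), Cyp4f14 (-0.30 and -0.71) and Cyp7b1 (0.093 and 0.064). At 14 days that of Cyp4b1 turned (-0.19 without the Hox-low arrays and -1.03 without both sets). Some differences not called with all arrays turned as well, as given above. No alternative listed at the outset turned the direction of a called member.

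Leaving out 1 array gave 1 to 3 calls at 2 days. At 7 days it gave 2 (without CRC male 1) to 11 (without CRC + E171 male 2). At 14 days it gave 2 (without CRC + E171 female 2) to 11 (without CRC + E171 male 1). The range was 0 to 1 at 21 days and 0 to 6 for the mean effect. Between days and sexes, where an adjusted p under 0.05 was required, the count was 0 throughout. The shares of all genes called in these fits, and with the replicate block below, are not given here. Same-numbered arrays of both groups deviated together with correlations of -0.18 to 0.48 over 15 pairs, over 0.1 in 8, and 8 correlated best with their own number, a hint from the data and not from the design. At 2, 7 and 14 days not every pair was over 0.1. At 21 days all 3 pairs were, between 0.21 and 0.48, each best with its own number. All arrays numbered 1 were on slides 1 to 4 and all numbered 2 on slides 5 to 8, so the number also stands for the slide. With a replicate block the daily counts were 2, 9, 9 and 0, against 2, 8, 6 and 0 without it, and the mean effect called 5 against 1. Genes near background, such as Cyp3a16 and Cyp4a29, have only a bound in the group where they were dim.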
